A study of Mus musculus with 8 samples.

Results

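The proteasome is the protease complex that degrades ubiquitin-tagged proteins, and transcripts of its subunits and assembly factors were followed here in AtT-20, a line from a mouse pituitary tumour of corticotropes. Members were the deposited gene rows whose symbol is Psma to Psmg followed by a number, Psme1 to Psme4, Psmf1 or Pomp, which gave 46 of 12193 rows. These rows hold 45 symbols. Psmd5 had a further row of 0.0158 to 0.0988 FPKM that did not pass the filter on low values, and the main row of each of the 45 genes passed it. By role, 15 genes encode core subunits, 17 cap subunits, 8 assembly factors and 5 activators or inhibitors. Psma8, Psmb9, Psmb10 and Psmb11 were not analysed here.

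The study asked what the epidermal growth factor receptor (EGFR) does to transcription in corticotropes, by RNA sequencing of total RNA. All 8 libraries came from AtT-20 cells grown in serum-containing medium, in 4 groups of 2 libraries. The Neo control line was given water, and the line with the EGFR genotype was given water, EGF for 3 h or EGF for 18 h. The water libraries are titled as 3 h, and no Neo library with EGF and no 18 h water library was analysed here. EGF effects are therefore given for the EGFR line, both times are set against the same water libraries, and at 18 h EGF and time in culture cannot be told apart. The sources used here do not say whether each line is 1 clone or a pool, nor from which species or promoter the EGFR comes. Nothing in the labels says that replicates came from separate cultures, so p-values measure the spread between these libraries, which may be technical.

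The 20S core is a barrel of stacked rings. Its outer rings are built of alpha subunits (Psma genes) that gate the chamber, and its inner rings of beta subunits (Psmb genes), of which Psmb5, Psmb6 and Psmb7 cut peptides. The 19S cap recognises ubiquitin, removes it and feeds the unfolded substrate into the core through a ring of ATPases (Psmc genes). In the immunoproteasome, which many cells build in response to interferon, Psmb8 takes the place of Psmb5, and the activator PA28, made of Psme1 and Psme2, can sit in place of a cap and favours peptides for antigen presentation.

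The level of Egfr followed the labels. It was 0.227 and 0.0663 FPKM in the Neo libraries and 25.9 to 31.9 FPKM in the 6 EGFR libraries. Of 8 corticotrope markers, 6 had a row, with Pomc at 6981 to 8930 FPKM, while 1 of 9 markers of other pituitary cells (Sox2, 3.50 to 4.89 FPKM) and 0 of 11 fibroblast, endothelial and blood markers had one. FPKM is a count of fragments scaled to gene length and library size, and its sum per library ran from 683834 to 808072. Replicates correlated at r = 0.985 to 0.987 and libraries of different groups at r = 0.973 to 0.986 across genes, which are not independent. In bulk RNA, fewer cells with a transcript and less transcript per cell cannot be told apart. The 2 libraries with EGF for 3 h did not match in level: replicate 1 was below replicate 2 in 44 of 45 members (97.8%), against 64.0% of all genes tested. With EGF for 18 h it was below in 41 of 45 members (91.1% against 53.1%), in Neo water in 30 of 45 and in EGFR water in 19 of 45. Medians over all members, and called values that rest on 1 of these libraries, are given with and without it. Medians and counts by role are given only with all libraries.

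Core subunits had the highest levels, with a median of 243 FPKM over 15 genes (mean of 8 libraries per gene), against 150 FPKM for 17 cap genes and 43.4 FPKM for 8 assembly factors. Psma7, an alpha subunit, was highest of all at 458 FPKM, and Psma5 was lowest of the 7 alpha subunits at 180 FPKM. Among the catalytic subunits, Psmb7 (trypsin-like activity) stood at 299 FPKM, Psmb6 (caspase-like activity) at 262 FPKM and Psmb5 (chymotrypsin-like activity) at 115 FPKM. The alternative subunit Psmb8 was lowest of all members at 10.4 FPKM, so that the highest and the lowest member lay 44.2-fold apart. Within the other beta subunits, levels ran from 192 FPKM for Psmb2 to 367 FPKM for Psmb4.

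The 6 ATPases of the cap base kept within a narrow band, from 132 FPKM for Psmc6 to 225 FPKM for Psmc5, a 1.70-fold range. The 3 other base subunits ran from 111 FPKM for Psmd1 to 255 FPKM for Psmd2, a docking scaffold. The lid, which carries the deubiquitinase Psmd14 (150 FPKM), ran from 37.3 FPKM for Psmd7 to 250.5 FPKM for Psmd13. Pomp, the maturation factor of the core, stood apart from the other assembly factors at 181 FPKM, while Psmg1, Psmg2, Psmg3 and Psmg4, the paired chaperones that build the alpha ring, had 70.3, 44.9, 25.4 and 41.2 FPKM. The chaperones of the cap base, Psmd5, Psmd9 and Psmd10, had 48.3, 41.9 and 19.3 FPKM. Among activators and inhibitors, Psme3 (nuclear PA28 gamma) had 125 FPKM, Psme2 82.6, Psme4 (PA200) 45.8, Psme1 33.2 and the inhibitor Psmf1 20.03 FPKM.

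**Figure D1:**
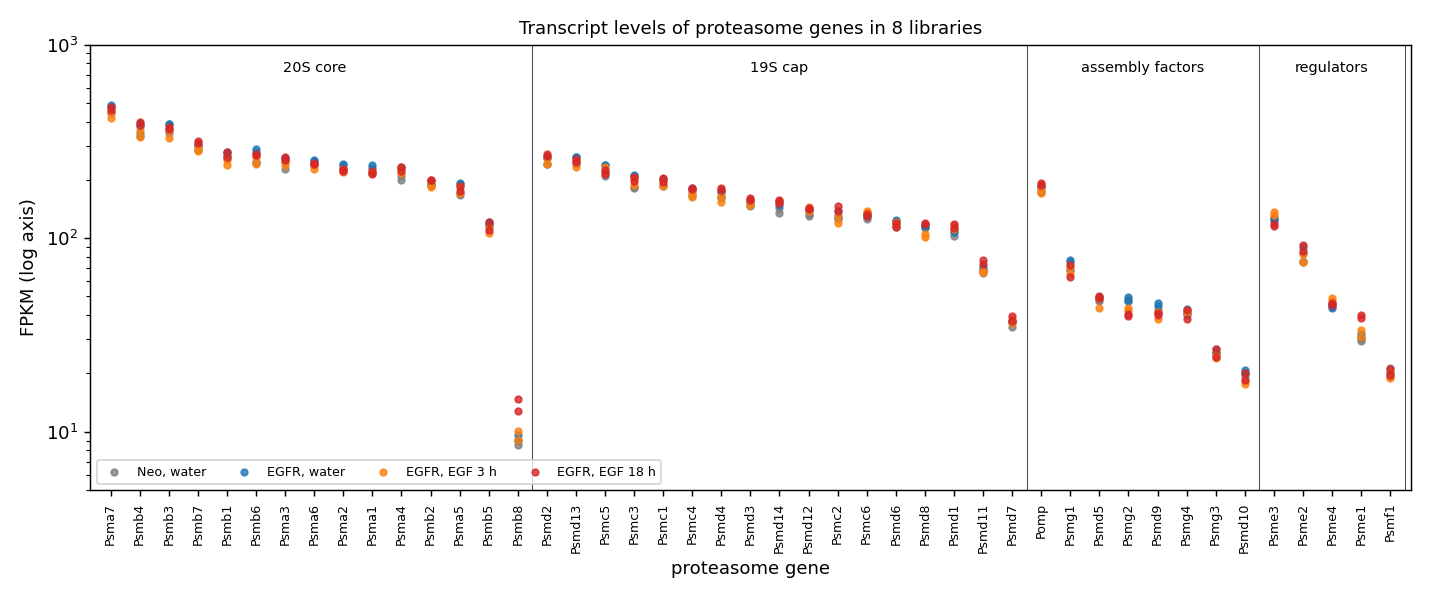
FPKM (log axis) of the 45 proteasome genes in each of 8 libraries, in blocks by role and ordered by mean level; points are libraries, coloured by group. Most genes hold 1 narrow band over all libraries; Psmb8, lowest of all at 8.54 to 14.8 FPKM, spreads most, with both EGF 18 h libraries on top.

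Over the 8 libraries most members varied little. The coefficient of variation was 21.6% for Psmb8 and 12.3% for Psme1, followed by 8.35% for Psmg2 and 8.12% for Psme2, and it was 2.83% for Psmb2. The summed FPKM of all members was 1.55 and 1.58% of protein-coding FPKM in Neo water, 1.66 and 1.65% in EGFR water, 1.60 and 1.64% with EGF for 3 h, and 1.67 and 1.71% with EGF for 18 h. The Neo pair was the lowest, and its values did not overlap those of the other groups. Summed cap FPKM was 70.6 and 70.6% of summed core FPKM in Neo water, 70.4 and 69.9% in EGFR water, 73.4 and 72.8% with EGF for 3 h, and 71.7 and 71.5% with EGF for 18 h. The cap thus stood relatively highest at 3 h, without overlap with water; an exact two-sided permutation test gave p = 0.333, the smallest that 2 against 2 libraries allow. By group means, 21 members were highest in EGFR water, 19 with EGF for 18 h, 4 with EGF for 3 h and 1 in Neo water. Of the 15 core genes 11 were highest in EGFR water, and of the 17 cap genes 10 were highest with EGF for 18 h and 12 lowest in Neo water. Such placements were not counted over all genes, so they cannot be called particular to the members or to a role.

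**Figure D2:**
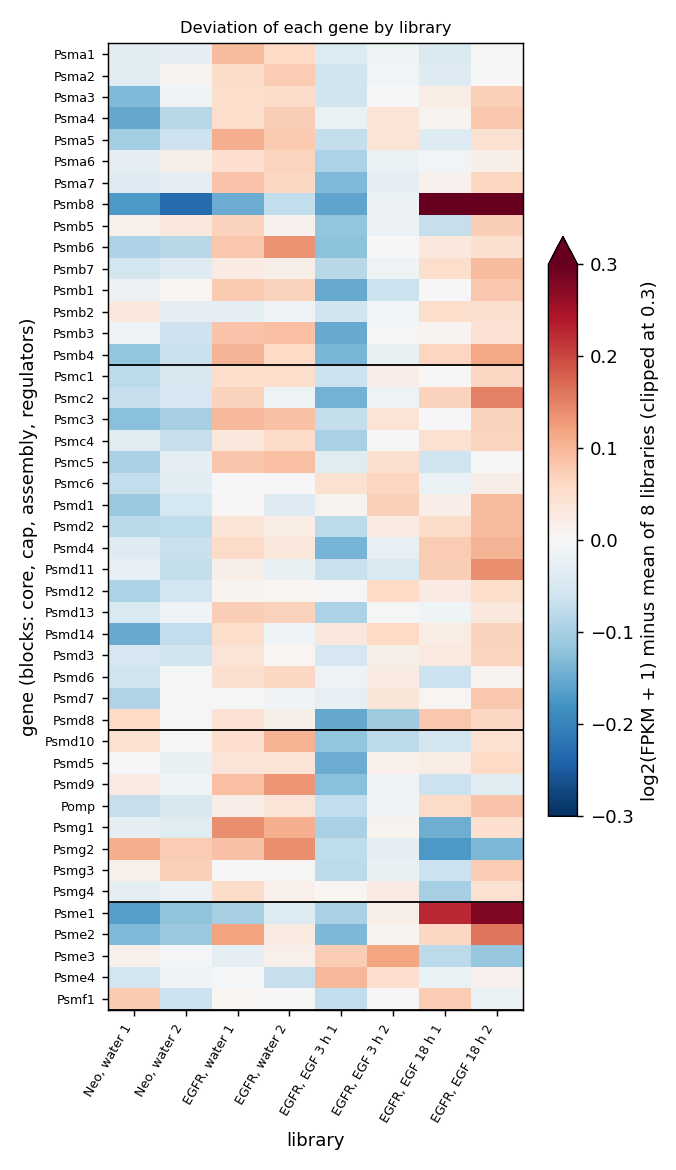
Deviation of each proteasome gene (rows, blocks by role) in each library (columns) from its mean over 8 libraries, on log2(FPKM + 1); red is above and blue below, and colours are clipped at 0.3. Replicate 1 of EGF 3 h is paler red or bluer than replicate 2 in 44 of 45 rows, and Psmb8 and Psme1 are deepest red in both EGF 18 h libraries.

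The first comparison was between the lines without EGF. Differences throughout are log2 fold changes on log2(FPKM + 1), tested with limma over 10874 genes, and a gene was called at a Benjamini-Hochberg adjusted p below 0.05. In EGFR water against Neo water 2 of 45 members were called higher, against 3.11% of all genes tested, and 0 lower (2.9% of all genes). In either direction 6.01% of all genes were called. An unadjusted p below 0.05 in either direction was given by limma for 20 members, against 25.8% of all genes. The direction was shared more widely, with 40 of 45 differences above 0. This compares with 55.2% of all genes and 63.6% of the 2734 genes whose mean was at least 40 FPKM. The median was 0.09, against 0.01 over all genes and 0.03 over those 2734 genes. Both EGFR water libraries lay above both Neo libraries in 36 members (33.6% of all genes) and below them in 1, Psmg3 (24.2% of all genes). Of the 2734 genes of at least 40 FPKM, 1238 lay above and 564 below. By role the medians were 0.11 for the core, 0.09 for the cap, 0.06 for assembly factors and -0.00 for activators and the inhibitor.

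Psmc3, an ATPase of the cap base, was 181 and 185 FPKM in Neo water and 212 and 210 FPKM in EGFR water. The pairs did not overlap, and the difference was 0.20 (SE 0.04, limma adjusted p = 0.0444). Psma4, an alpha subunit, was 199 and 209 FPKM in Neo water and 229 and 233 FPKM in EGFR water. It was higher in both EGFR libraries, by 0.18 (SE 0.04, limma adjusted p = 0.0497). Psme2 and Psmb6 had larger differences than Psma4 and missed the threshold in limma: Psme2 had 0.20 (adjusted p = 0.0938) and Psmb6 0.20 (adjusted p = 0.0532). The catalytic subunits Psmb5 and Psmb7 differed by 0.02 and 0.07, and Psmb8 by 0.09, with adjusted p of 0.865, 0.282 and 0.489 in limma. Neither call held when any 1 of the 4 libraries compared was left out, and 0 members were then called higher. A variance without trend, a common sum of FPKM or no filter also gave 0, against 2.32%, 2.84% and 2.23% of all genes. Protein-coding genes alone gave 7, against 5.78% of the genes then tested.

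With EGF for 3 h against water in the EGFR line, 10 of 45 members fell, against 19.7% of all genes, and 0 were called higher (11.8% of all genes). In either direction 31.5% of all genes were called. An unadjusted p below 0.05 in either direction was found by limma for 20 of 45 members, against 44.6% of all genes. Of the 10, 6 belong to the core (Psma1, Psma7, Psmb1, Psmb3, Psmb4 and Psmb6), 3 to the assembly factors (Psmg2, Psmd9 and Psmd10) and 1 to the cap, the lid subunit Psmd8. The share called was near that of all genes, while the median was -0.09 against -0.04 over all genes and -0.06 over the 2725 genes with a mean of at least 40 FPKM. Both EGF libraries lay below both water libraries in 31 members (43.8% of all genes). They lay above them in 4 (26.7% of all genes), Psmc6, Psmd1, Psme3 and Psme4. Of the 2725 genes of at least 40 FPKM, 1478 lay below and 577 above. By role the medians were -0.11 for the core, -0.14 for assembly factors, -0.06 for the cap and 0.03 for activators and the inhibitor. Of 12 proteasome-associated genes that the symbol rule leaves out, 2 were called higher (11.8% of all genes) and 1 lower (19.7%). The lower gene was Shfm1, with -0.18 (SE 0.03, limma adjusted p = 0.00801).

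Psmb1, a beta subunit without proteolytic activity, was 279 and 277 FPKM in water and 238 and 253 FPKM with EGF for 3 h. Its fall was -0.18 (SE 0.04, limma adjusted p = 0.0188). Psmb6, the only catalytic subunit called, was 246 and 247 FPKM in Neo water, 277 and 287 in EGFR water and 240 and 262 with EGF, so that both Neo libraries lay within the EGF pair. The comparison of the lines and that of EGF share the EGFR water libraries, which enter them with opposite sign. Its fall was -0.17 (SE 0.05, limma adjusted p = 0.0300), beside -0.11 for Psmb5 (adjusted p = 0.168) and -0.07 for Psmb7 (adjusted p = 0.170), which were not called. Psmd8 was 116 and 114 FPKM in water and 101.2 and 104.6 FPKM with EGF, a fall of -0.16 (SE 0.03, limma adjusted p = 0.0137). Psmg2, which pairs with Psmg1, was 47.6 and 49.4 FPKM in water and 42.4 and 43.8 FPKM with EGF. It fell by 0.17 (SE 0.04, limma adjusted p = 0.0132), and Psmg1 had the same size of difference, -0.17, with an SE of 0.07 and no call (adjusted p = 0.0899). Psmd9 and Psmd10, which hold ATPases while the cap base forms, both fell by 0.18 (SE 0.04 each; limma adjusted p = 0.0210 and 0.0239). The other called genes were Psmb3 (-0.17), Psmb4 (-0.16), Psma7 (-0.15) and Psma1 (-0.10), with limma adjusted p of 0.0453, 0.0394, 0.0337 and 0.0492. All 10 calls were lost without replicate 1 of EGF 3 h. Without it the differences were -0.09 for Psmb3 and Psma1, -0.10 for Psmb4 and Psma7, -0.11 for Psmb6, -0.12 for Psmd9, -0.14 for Psmb1, Psmg2 and Psmd8, and -0.16 for Psmd10.

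Among the activators, Psme3 and Psme4 were higher and Psme2 was lower than water at 3 h, all without a call. Psme3 was 123 and 127 FPKM in water and 132 and 136 FPKM with EGF for 3 h, a difference of 0.10 (SE 0.03, limma adjusted p = 0.0510). Psme4 was 45.6 and 43.6 FPKM in water and 49.1 and 47.4 FPKM with EGF, a difference of 0.11 (SE 0.04, limma adjusted p = 0.0575). Both pairs were above water without overlap. Psme2 had -0.14 (adjusted p = 0.111 in limma), with its EGF pair below water without overlap. Psme1 (0.03), Psmb8 (0.02) and Psmf1 (-0.04) were not called either.

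The number of members that fell at 3 h depended on single libraries and on the scaling. Fewer members, and a smaller share of all genes, fell without replicate 1 of EGF 3 h or either EGFR water library. More of both fell without replicate 2 of EGF 3 h. The member median was -0.04 without replicate 1 of EGF 3 h and -0.12 without replicate 2, against -0.02 and -0.06 over all genes. Median-ratio scaling called 7 members lower (14.3% of all genes) and 3 higher (16.4%). Quantile normalization called 4 lower (15.9% of all genes) and 2 higher (14.3%). With libraries scaled to a common sum of FPKM 0 were lower, against 4.05% of all genes. Among all genes, the share of calls that were higher was 37.5%, and 53.5% and 75.4% with the median-ratio and common-sum scaling.

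**Figure D3:**
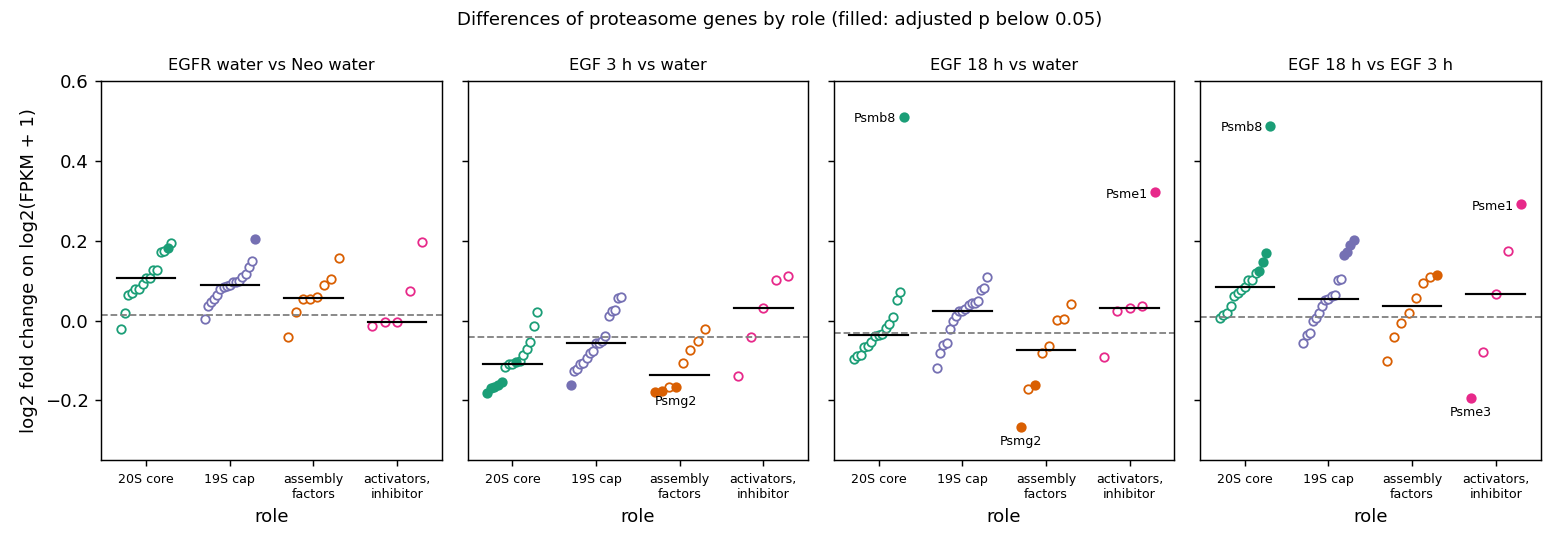
Log2 fold change on log2(FPKM + 1) of each proteasome gene in 4 comparisons, by role; filled points were called by limma, black bars are medians of a role and the dashed line is the median of all genes tested. The medians of the core, cap and assembly factors lie below the dashed line at 3 h, that of the cap by the least. At 18 h Psmb8 (0.51) and Psme1 (0.32) stand above all other members and Psmg2 (-0.27) below them.

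With EGF for 18 h against the same water libraries, the immunoproteasome subunit Psmb8 and the activator subunit Psme1 rose, and the assembly chaperones Psmg2 and Psmd9 fell. These are 2 of 45 members higher, against 13.2% of all genes, and 2 lower, against 18.7% (31.9% in either direction). The EGF libraries did not overlap water in 12 members that were higher (28.9% of all genes) and 15 that were lower (43.1%). The median was 0.00, against -0.03 over all genes, and by role it was -0.04 for the core, 0.03 for the cap, -0.07 for assembly factors and 0.03 for activators and the inhibitor. None of the 17 cap members was called, and 2 had an unadjusted p below 0.05 in limma, against 43.7% of all genes. Of 12 proteasome-associated genes that the symbol rule leaves out, 2 were called higher (13.2% of all genes) and 1 lower (18.7%). Adrm1 was among the higher ones, by 0.15 (SE 0.04, limma adjusted p = 0.0333).

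Psmb8 was 8.92 and 8.54 FPKM in Neo water, 9.10 and 9.63 in EGFR water, 9.02 and 10.1 with EGF for 3 h, and 12.8 and 14.8 with EGF for 18 h. Both 18 h libraries lay above the other 6, which spanned 8.54 to 10.1 FPKM. Its rise over water was 0.51 (SE 0.08, 95% interval 0.33 to 0.69, limma adjusted p = 0.00251), from 9.36 ± 0.38 to 13.8 ± 1.4 FPKM (SD, n = 2 libraries each). The subunit whose place it takes, Psmb5, was 121 and 116 FPKM in water and 110 and 121 FPKM at 18 h, with a difference of -0.04 (95% interval -0.17 to 0.09). Psmb8 was thus 7.52 and 8.28% of Psmb5 in water, 8.50 and 8.83% at 3 h and 11.7 and 12.2% at 18 h, and it stayed the lowest core subunit in every library. The other constitutive catalytic subunits, Psmb6 (-0.07, 95% interval -0.17 to 0.04) and Psmb7 (0.05, -0.03 to 0.14), were not called.

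Psme1 was 29.3 and 30.2 FPKM in Neo water, 30.7 and 32.0 in EGFR water, 30.8 and 33.4 with EGF for 3 h, and 38.8 and 40.2 with EGF for 18 h. Both 18 h libraries were above the other 6. It rose over water by 0.32 (SE 0.05, limma adjusted p = 0.00236), from 31.4 ± 0.92 to 39.5 ± 1.0 FPKM (SD, n = 2 each). Its partner Psme2 was 74.96 and 76.1 FPKM in Neo water, 89.6 and 83.9 in EGFR water, 74.9 and 82.8 at 3 h, and 86.0 and 92.2 at 18 h. The 18 h and water pairs of Psme2 overlapped, and its difference was 0.04 (95% interval -0.10 to 0.17). Psme4 (0.03), Psmf1 (0.02) and Psme3 (-0.09) were not called, with limma adjusted p of 0.537, 0.773 and 0.0736.

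Psmg2 was 48.3 and 47.2 FPKM in Neo water, 47.6 and 49.4 in EGFR water, 42.4 and 43.8 with EGF for 3 h, and 39.6 and 40.7 with EGF for 18 h. All 4 EGF libraries were below all 4 water libraries. Its fall at 18 h was -0.27 (SE 0.04, limma adjusted p = 0.00155), from 48.5 ± 1.3 to 40.1 ± 0.78 FPKM (SD, n = 2 each). Its partner Psmg1 was 77.4 and 75.7 FPKM in water and 63.3 and 72.7 FPKM at 18 h, lower in both libraries by 0.17 on the log2 scale but with an SE of 0.07 and no call (limma adjusted p = 0.0833). Psmg3 and Psmg4, the other pair, had 0.00 and -0.06, and Pomp had 0.04. Psmd9 was 42.55 and 41.49 FPKM in Neo water, 44.6 and 46.0 in EGFR water, 38.2 and 41.51 at 3 h and 39.96 and 40.80 at 18 h. It was below EGFR water in all 4 EGF libraries, by 0.16 on the log2 scale at 18 h (SE 0.04, limma adjusted p = 0.0290). Replicate 2 of EGF 3 h was not below replicate 2 of Neo water, and the EGFR water pair was the highest of the 4 groups. The call at 18 h was lost without any 1 of the 4 libraries compared. Psmb8, Psme1 and Psmg2 kept their calls under all 18 alternatives run at the same threshold, while 12 members were called higher with quantile normalization (15% of all genes were) and 4 with median-ratio scaling (17% of all genes).

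**Figure D4:**
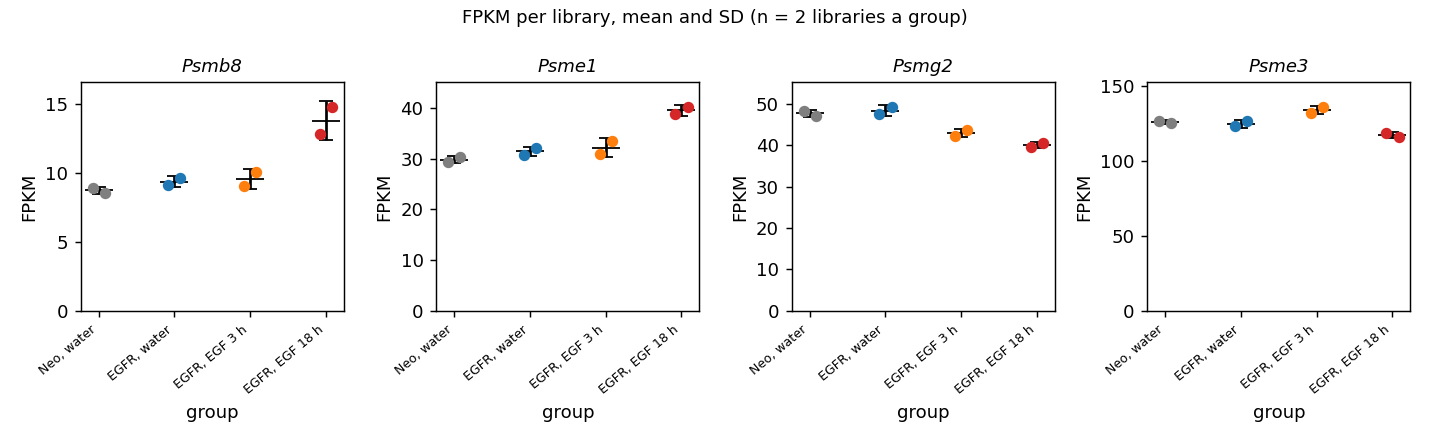
FPKM of Psmb8, Psme1, Psmg2 and Psme3 in each library (points) by group, with the mean and SD of the 2 libraries. Psmb8 and Psme1 are raised with EGF for 18 h, Psmg2 is lower in all 4 EGF libraries, and Psme3 is highest at 3 h (132 and 136 FPKM) and lowest at 18 h (119 and 116 FPKM).

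The promoters of 4 members are shown because the data bear on them: Psmb8 and Psme1 rose at 18 h, Psmd9 was called lower at both times, and Psmb5 is the constitutive counterpart of Psmb8. Each stretch is 200 bases, of which 180 lie before and 20 after the RefSeq start (GRCm38.p6), and capitals mark a motif match. They are Psmb8 at chr17:34198015-34198214 (plus strand), Psme1 at chr14:55578314-55578513 (plus strand), Psmd9 at chr5:123228010-123228209 (plus strand) and Psmb5 at chr14:54617976-54618175 (minus strand).
Psmb8: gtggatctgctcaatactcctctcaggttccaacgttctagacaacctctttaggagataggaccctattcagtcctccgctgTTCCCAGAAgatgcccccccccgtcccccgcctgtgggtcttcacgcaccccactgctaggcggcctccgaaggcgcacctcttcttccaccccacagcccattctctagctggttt
Psme1: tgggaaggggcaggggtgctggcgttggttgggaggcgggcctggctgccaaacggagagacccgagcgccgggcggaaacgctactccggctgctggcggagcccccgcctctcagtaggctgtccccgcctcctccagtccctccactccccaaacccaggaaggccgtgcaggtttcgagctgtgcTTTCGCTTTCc
Psmd9: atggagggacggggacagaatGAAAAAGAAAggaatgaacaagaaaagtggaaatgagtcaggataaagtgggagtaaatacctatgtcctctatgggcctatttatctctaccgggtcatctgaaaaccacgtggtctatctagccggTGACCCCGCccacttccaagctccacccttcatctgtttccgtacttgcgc
Psmb5: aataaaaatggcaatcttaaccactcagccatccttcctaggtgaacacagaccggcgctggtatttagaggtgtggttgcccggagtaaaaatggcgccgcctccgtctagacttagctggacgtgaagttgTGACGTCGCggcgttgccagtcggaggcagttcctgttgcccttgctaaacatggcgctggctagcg

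Motifs were searched on both strands in windows of 250 bases before to 50 after the start, which RefSeq gave for 38 of the 45 members. TTCNNNGAA, the letters of GAS-type elements, was in the windows of Psmb8, Psmd2 and Psmg1, or 7.32% of 41 member windows against 8.3% of 32851 windows. In Psmb8 it lies 88 bases before the start. GAAA followed by any 2 bases and GAAA again, the letters that interferon regulatory factors favour, was in those of Psmb3, Psmd4, Psmd9, Psme1 and Psmg4, or 12.2% against 3.44%, and in Psme1 it lies on the opposite strand just after the start. TGACNNNGC, a core of the element that NRF1 (Nfe2l1) binds in proteasome promoters, was in those of Psmb5, Psmb6, Psmc6, Psmd12, Psmd9 and Psme4, or 14.6% against 12.4%. CCAAT was in 29.3% of member windows and 37.4% of all. Such matches describe the letters and are neither sites nor causes; no binding was measured in these files. The loci that the files give for Psmb8 (chromosome 17, 34197721 to 34201454, mm10), Psme1 (chromosome 14, 55578123 to 55581529, mm10) and Psmd9 (chromosome 5, 123169413 to 123250131, mm10) begin upstream of the stretches shown, and that of Psmd9 by far the most.

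Both EGF groups were also compared with each other, in 18 h against 3 h, a contrast that shares its libraries with the EGF comparisons above. Here 10 of 45 members were higher (17.7% of all genes) and 1 lower (16% of all genes), against 33.7% of all genes in either direction. The libraries did not overlap in 22 members that were higher at 18 h (35.2% of all genes) and 4 that were lower (33.1%), and the median was 0.06 against 0.01 over all genes. Besides Psmb8 (0.49, SE 0.08, limma adjusted p = 0.00376) and Psme1 (0.29, SE 0.05, limma adjusted p = 0.00434), the higher genes were spread over the roles: Psmb1, Psmb4 and Psmb7 in the core, Psmc2, Psmd4, Psmd8 and Psmd11 in the cap, and Pomp. All 15 core differences and 36 of 45 member differences were above 0, against 52.1% of all genes. The median was 0.09 for the core, beside 0.05 for the cap, 0.04 for assembly factors and 0.07 for activators and the inhibitor. Without replicate 1 of EGF 3 h the median over all members was 0.03, and the core was not examined alone.

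Psmd8 was 101.2 and 104.6 FPKM at 3 h and 119 and 118 FPKM at 18 h. The pairs lay apart by 0.20 (SE 0.03, limma adjusted p = 0.00553), and water lay between them at 116 and 114 FPKM. Psmc2, an ATPase, was 120 and 131 FPKM at 3 h and 138 and 147 FPKM at 18 h, a difference of 0.19 (SE 0.05, limma adjusted p = 0.0308). The ubiquitin receptor Psmd4 was 153 and 166 FPKM at 3 h and 178 and 181 FPKM at 18 h, a difference of 0.17 (SE 0.04, limma adjusted p = 0.0201). In these genes both 18 h libraries were above both 3 h libraries. The rest were Psmb4 (0.17), Psmd11 (0.16), Psmb1 (0.15), Psmb7 (0.12) and Pomp (0.11), with limma adjusted p of 0.0312, 0.0130, 0.0353, 0.0355 and 0.0368.

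Psme3 went the other way. It was 127 and 125 FPKM in Neo water, 123 and 127 in EGFR water, 132 and 136 with EGF for 3 h, and 119 and 116 with EGF for 18 h. The 18 h pair was the lowest of the 4 groups and the 3 h pair the highest, and they differed by -0.19 (SE 0.03, limma adjusted p = 0.00527). Psmg2 had -0.10 in this contrast (limma adjusted p = 0.0649) and Psme2 0.18 (adjusted p = 0.0554), neither called. The calls of Psmb8, Psme1 and Psme3 were kept under all 18 alternatives at the same threshold. Of the higher members, only Psmb8, Psme1 and Psmd8 kept their call without replicate 1 of EGF 3 h. The member median was then 0.03, and 0.10 without replicate 2 of EGF 3 h, against -0.01 and 0.03 over all genes. It was 0.09 and 0.04 without replicate 1 and 2 of EGF 18 h, against 0.01 over all genes each time. Fewer members, and fewer of all genes, were called higher without either library of EGF 18 h or of EGFR water. With a common sum of FPKM 2 members were higher, against 7.94% of all genes.

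Genes around the proteasome were taken from lists of 4 kinds, 40 genes in all. In EGFR water against Neo water 1 of the 40 was higher (3.11% of all genes) and 3 lower (2.9%). With EGF for 3 h, 5 were higher (11.8%) and 5 lower (19.7%), and for 18 h 14 were higher (13.2%) and 2 lower (18.7%). At 18 h against 3 h, 12 were higher (17.7%) and 2 lower (16%). Antigen processing genes made up 7 of the 14. All 7 that were tested rose at 18 h (13.2% of all genes did), with a median of 0.41 against -0.03 over all genes, and the lists were drawn up with earlier results of these data known. Tap1 and Nlrc5 of the same list were not analysed here.

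Tapbp, which loads peptides onto class I molecules, was 14.9 and 15.6 FPKM in EGFR water, 15.4 and 15.3 at 3 h and 21.6 and 23.4 at 18 h, a rise of 0.53 over water at 18 h (SE 0.06, limma adjusted p = 0.000786). B2m, the light chain of class I, was 46.8 and 45.1 FPKM in water, 47.5 and 48.7 at 3 h and 64.3 and 68.3 at 18 h, a rise of 0.52 at 18 h (SE 0.05, limma adjusted p = 0.000272). In both genes the 18 h libraries stood above all others and 3 h was not called, the order seen in Psmb8 and Psme1. Tap2 (0.41) rose at 18 h as well. H2-D1, a class I heavy chain, was 139 and 138 FPKM in Neo water, 115 and 123 in EGFR water, and 143 and 146 at 18 h. It was lower in EGFR water than in Neo water by 0.22 on the log2 scale (limma adjusted p = 0.0241), and its rise at 18 h was 0.28 over EGFR water. The transcription factor Irf1 was raised at both times: it was 8.60 and 8.04 FPKM in water, 12.7 and 14.2 at 3 h and 13.4 and 12.9 at 18 h, with rises of 0.63 and 0.60 (limma adjusted p = 0.000659 and 0.000438). Its part in the rise of Psmb8 and Psme1 was not tested.

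**Figure D5:**
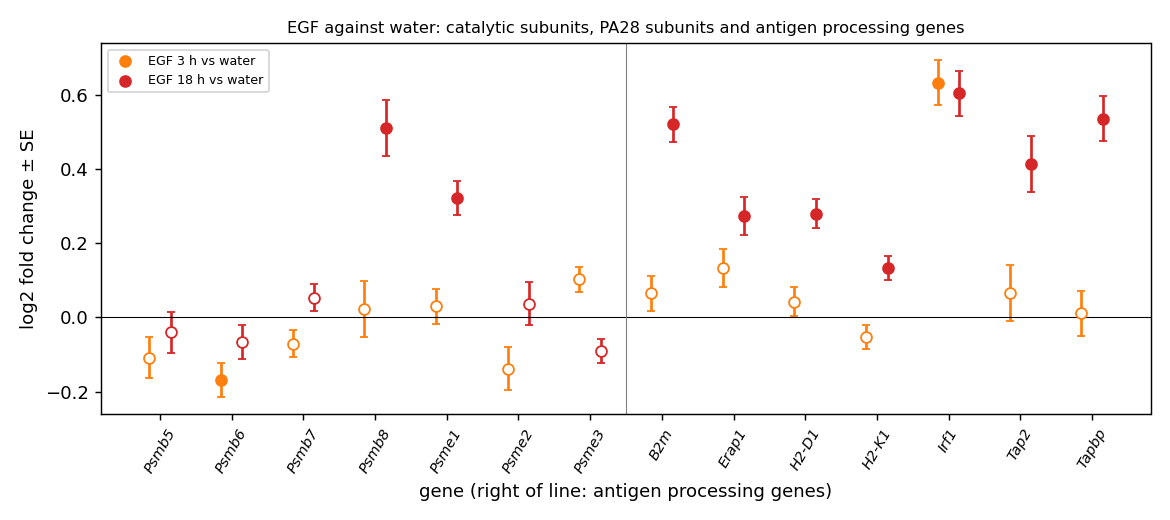
Log2 fold change (SE bars) of EGF 3 h and EGF 18 h against water for catalytic and PA28 subunits (left of the line) and antigen processing genes (right); filled points were called by limma. Irf1 is filled at both times, while Psmb8, Psme1, B2m, Tapbp and Tap2 are filled at 18 h and not at 3 h.

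Among the other lists, Midn, which carries proteins to the proteasome without ubiquitin, rose most: it was 17.6 and 17.5 FPKM in EGFR water, 31.2 and 29.2 at 3 h and 27.97 and 24.6 at 18 h. Its rises were 0.75 and 0.55 (limma adjusted p = 0.000449 and 0.000924). The polyubiquitin gene Ubb fell by 0.27 at 3 h (limma adjusted p = 0.00482), and Zfand2a, a proteasome-associated stress gene, rose by 0.26 (adjusted p = 0.00732). Bag1 and the segregase Vcp were higher at 18 h than at 3 h, by 0.28 and 0.20 (limma adjusted p = 0.00192 and 0.00537). Ubqln2, a shuttle factor, was lower in EGFR water than in Neo water by 0.36 on the log2 scale (limma adjusted p = 0.0161).

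Nfe2l1, the transcription factor NRF1 that drives proteasome genes when proteasome activity falls short, was 98.2 and 99.2 FPKM in Neo water, 104 and 106 in EGFR water, 88.2 and 99.3 at 3 h, and 109 and 107 at 18 h. At 3 h replicate 1 was the lowest library, while replicate 2 lay at the Neo level. The 18 h pair was above the 3 h pair by 0.21 (SE 0.05, limma adjusted p = 0.0233), and by 0.12 without replicate 1 of EGF 3 h (adjusted p = 0.0467). This call was lost without replicate 1 or 2 of EGF 18 h, where the difference was 0.19 and 0.22. It was also lost with a common sum of FPKM (0.16, limma adjusted p = 0.157) and in a fit of only the 2 groups (limma adjusted p = 0.0572). Its differences from water were not called. The transcript level does not show the activity of this factor, which also depends on processing of the protein.

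Near-identical gene copies limit some values. Of the 45 members, 14 share a stretch of at least 200 bases and 95% identity with another gene, and in 12 such stretches cover at least 20% of a transcript: Psma2, Psma3, Psma4, Psma5, Psmb3, Psmb5, Psmb7, Psmc1, Psmd2, Psmd11, Psme2 and Psmg3. The copy Gm3375 had 39.99 to 42.3% of the FPKM of Psmb5, Gm13835 had 38.5 to 39.8% of that of Psma3, and Psme2b had 14.1 to 15.7% of that of Psme2. These ratios were nearly constant over the 8 libraries. The sources used here do not say how reads that match both were counted, so levels of these 12 genes and ratios to Psmb5 or Psme2 are uncertain. Psmb8, Psme1, Psmg2 and Psme3 share no such stretch, though other genes overlap 14.7% of the exon bases of Psmb8, and 25.5% of those of Psmd9.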

How the data were processed

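The authors deposited FPKM per gene locus on mm10 for each of 8 libraries, and these FPKM values were used as deposited. Tools listed in the submitters' processing notes are DESeq (without a version), HTSeq 0.5.4, TopHat2 2.0.8 and Trimmomatic 0.22; the sources used here do not say which program gave FPKM or whether strand was kept. Library depth is not given either; single-fragment steps in 9 to 20 genes per library, in a window of 45 to 75 M chosen after seeing the data, give about 55.1 to 65.5 M fragments, and at that depth Psmb8 had about 169 fragments in its lowest library if its shortest coding transcript is assumed.

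Genes of at least 1 FPKM in at least 2 libraries (10874) were tested in 1 limma 3.58.1 fit (R 4.3.3) of all 4 groups on log2(FPKM + 1) with a variance trend, 4 residual degrees of freedom and Benjamini-Hochberg adjustment over all genes tested. Fold changes on this scale understate those of low genes. On simulated data for EGF 18 h against water with 200 changed genes, the fit recovered 0% of 1.1-fold, 63% of 1.2-fold and 98% of 1.5-fold changes (10836 to 10841 genes). The changed genes left out low ones, while 3467 genes were called in the data. The adjusted threshold was therefore less strict in the data than in the simulation, and these shares do not carry over to it. Named were up to 12 called members per comparison by size. Also named were the catalytic subunits, activators, inhibitor, Pomp and Psmg genes, and the highest and lowest member of each role. Of the pathway lists, up to 6 called genes per comparison were named. Tap2, Bag1, Vcp, Adrm1 and Shfm1 were picked among the called genes after their values were seen. An item of the antigen processing list is not reported here. The members and lists were chosen with earlier results of these data known. Copies were found with minimap2 2.31 against GENCODE M21 transcripts; 36 of 46 member rows match its gene spans. Alternatives covered the pseudocount, filter, scaling, variance model, replicate block, threshold and leaving out each library.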

Additional observations from a re-analysis of the deposited data

Results flagged for a closer look

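For 11 members the 18 h against 3 h contrast, in which the shared water libraries cancel, was called by limma. Without 18 h water libraries, EGF and time in culture cannot be told apart in it. The difference was 0.49 for Psmb8 and 0.29 for Psme1 on the log2 scale. In the cap it was 0.20 for Psmd8, 0.19 for Psmc2, 0.17 for Psmd4 and 0.16 for Psmd11. In the core it was 0.17 for Psmb4, 0.15 for Psmb1 and 0.12 for Psmb7, and it was 0.11 for the assembly factor Pomp. Psme3 alone among the 11 had a negative one, -0.19. For these genes both 18 h libraries lay on 1 side of both 3 h libraries, and replicate 1 of the 3 h group was below replicate 2 in 44 of 45 members. Without that library Psmb8 (0.42), Psme1 (0.23), Psmd8 (0.18) and Psme3 (-0.21) kept their call, and the other 7 lost it, with values of 0.15 for Psmd11, 0.13 for Psmc2, 0.11 for Psmd4 and Psmb4, 0.10 for Psmb1, 0.09 for Psmb7 and 0.08 for Pomp.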

How the results depend on the processing

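Direction and side of the threshold held for 346 single-gene values under the alternatives, 167 lost their call and 0 reversed. Psmb8, Psme1 and Psmg2 (18 h against water) and Psmb8, Psme1 and Psme3 (18 h against 3 h) lost none at the same threshold; the causes of the losses were not tested. With a common sum of FPKM, genes called were 412 (653 as reported) between the lines and 1786 (3425) at 3 h. They were 1894 (3467) at 18 h and 2194 (3663) between the times. Members called were 0 higher between the lines (2.84% of all genes) and 0 lower at 3 h (4.05%). At 18 h 1 was lower (6.49%), and between the times 2 were higher (7.94%). Member medians were 0.169, -0.00329, 0.0351 and 0.0182 in the same order of comparisons. Of all genes called, 51.8% between the lines, 37.5% at 3 h, 41.4% at 18 h and 52.5% between the times were higher; a common sum gave 75%, 75.4%, 62.8% and 39.3%, and median-ratio scaling 43.8%, 53.5%, 53.4% and 50.5%. Median-ratio scaling called 3 members higher at 3 h (16.4% of all genes, member median -0.0452). It called 4 higher at 18 h (17%) and 2 lower between the times (17.8%). Quantile normalization called 2 members higher (14.3% of all genes) and 4 lower (15.9%) at 3 h, with a member median of -0.0201. It called 12 higher at 18 h (15%, member median 0.0522) and 2 lower between the times (18.5%). Protein-coding genes alone gave 7 members higher between the lines (5.78% of the genes then tested), 2 higher at 3 h (15.1%) and 5 lower at 18 h (23%). Without a filter 0 members were higher between the lines (2.23% of all genes) and 1 at 3 h (10.3%). With a minimum of 5 FPKM 1 was higher at 3 h (12.6%), and without a variance trend 0 were higher between the lines (2.32%). A fit of only the 2 groups called 293 genes between the lines. It called 6 members lower at 3 h (15.8% of all genes) and 4 higher between the times (14.5%). At an adjusted p below 0.01, genes called were 113, 1377, 1739 and 1666. Members called were 0 higher between the lines (0.303% of all genes) and 0 lower at 3 h (7.11%). At 18 h 1 was lower (8.45%), and between the times 3 were higher (8.46%).

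Leaving out 1 library in turn gave 85 to 689 genes called between the lines, 1445 to 3356 at 3 h, 1795 to 3609 at 18 h and 1877 to 3645 between the times. Member medians then ran from -0.119 to -0.0428 at 3 h, -0.0342 to 0.0201 at 18 h and 0.0254 to 0.105 between the times. A group left with 1 library was assumed to vary like the others.

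Replicate numbers are shared by the groups, but the labels do not say what they mark. Deviations of same-numbered libraries correlated at -0.17 to 0.31 over the 6 pairs of groups. These correlations cannot settle whether the libraries were paired. With the replicate block 382 genes were called between the lines, and 1 member was higher (1.68% of all genes). At 3 h 10 members were lower (17.7%), and at 18 h 2 were higher (12%) and 3 lower (17.3%). Between the times 10 were higher (16.5%) and 1 lower (14.5%). In simulated data for EGF 18 h against water, the test recovered 0% of 1.1-fold and 63% of 1.2-fold changes.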
